A study of Homo sapiens with 6 samples.

Results

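The genes described here are the clone-named genes of K562 cells: loci that the annotation knows mostly by the sequenced genomic clone that carries them, with symbols made of AC, AL or AP, digits, a point and a number. The members were chosen by level, as every symbol of that form with a raw total of at least 2000 counts over 6 RNA-seq libraries, which gave 142 genes. They stand among 20727 clone-named genes and 60609 genes listed in all, and 9857 of the clone-named genes had at least 1 count. AC012103.1 was also put in by name for its difference between the groups, so its values are given as a description with no test, although its raw total of 2406 passes the minimum without that. The members nearest the minimum were AC011632.1 and AC002480.1, with raw totals of 2058 and 2080, and the nearest clone-named genes outside it were AL646090.2 and AC015813.1, with 1992 and 1984. Their log2 fold changes were 0.30 and 1.54 inside and -0.77 and 0.50 outside.

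K562 is an established human leukaemia line with erythroid features. In all 6 libraries both copies of EP400, the ATPase scaffold of the TIP60 chromatin complex, carried a degradation tag (EP400-dTAG), and the cells had received 500 nM dTAGV-1 for 24 h to remove the tagged protein. The 3 WT libraries came from cells with exogenous WT EP400 at the AAVS1 locus, and the 3 Delta-TRRAP libraries from cells with exogenous EP400 that lacks the part to which the TRRAP module attaches. Each complemented line was 1 clone, so clone and genotype cannot be told apart, and the p-values measure the spread between libraries of a line. In bulk RNA, fewer cells with a transcript and less of it in each cell cannot be told apart either.

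Long noncoding RNAs are transcribed by RNA polymerase II, capped, often spliced and polyadenylated, and lack a long conserved reading frame. Many start at the promoter of a coding gene and run the opposite way (divergent transcripts), many overlap a coding gene on the other strand (antisense transcripts), and others lie between genes and often begin in repeated sequence. TIP60 acetylates histones and exchanges H2A.Z at promoters, and TRRAP is the large subunit by which transcription factors bind the complex. Poly(A) selection keeps only the polyadenylated part of this RNA, and a gene count says nothing of the function of the transcript.

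By the biotypes of GENCODE release 44, 112 members are lncRNAs, 22 are pseudogenes of several kinds, 4 are protein-coding, 2 await experimental support and 2 had no matching gene ID. The coding ones include AC118549.1, which release 44 names ZZZ3. In release 44, 59 members have a name of their own, of which 11 end in -DT for a divergent transcript and 20 in -AS for an antisense RNA. Against protein-coding genes each member was put in the first class that applied. In this order, 25 were divergent (with the start of the canonical transcript on the opposite strand within 1000 bases of a coding start), 28 were antisense, 13 of the rest overlapped a coding gene on the same strand, and 74 were intergenic. In all, 16 members overlapped a coding gene on the same strand, since AC060780.1 is also divergent and AL160006.1 and AC092718.4 are also antisense. The raw totals ran from 2058 to 194266 with a median of 3355, and 18 members had at least 10000.

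The start of each gene is where a chromatin complex would act first, so the promoter windows (250 bases before to 50 after the start, GRCh38, the assembly also named hg38) are shown for members on which the results turn. A window was called CpG-rich with at least 55% G and C and a ratio of observed to expected CpG of at least 0.65. That held for 84.0% of the 25 divergent members, 17.9% of the 28 antisense members and 15.1% of 73 intergenic members, beside 73.6% of 13231 tested protein-coding genes and 59.5% of 19012 tested genes with a window. The first window below is that of AC027644.3, the divergent member with the largest rise, at chr7:66740593-66740892 on the minus strand, with 73.7% G and C and 41 CpG sites. The second is that of AL365181.2 (BCAN-AS1), the member with the largest rise of all, at chr1:156640955-156641254 on the minus strand, with 53.0% G and C and 1 CpG site. Capitals mark the CCAAT motif on either strand (CCAAT or ATTGG), which 36.7% of 139 member windows and 35.6% of all 19012 windows held.
AC027644.3: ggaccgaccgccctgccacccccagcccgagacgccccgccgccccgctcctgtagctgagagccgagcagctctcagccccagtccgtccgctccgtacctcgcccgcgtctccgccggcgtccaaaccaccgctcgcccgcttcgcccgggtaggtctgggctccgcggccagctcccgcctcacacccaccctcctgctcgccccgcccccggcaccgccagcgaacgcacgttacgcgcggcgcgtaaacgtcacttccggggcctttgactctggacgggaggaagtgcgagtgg
AL365181.2: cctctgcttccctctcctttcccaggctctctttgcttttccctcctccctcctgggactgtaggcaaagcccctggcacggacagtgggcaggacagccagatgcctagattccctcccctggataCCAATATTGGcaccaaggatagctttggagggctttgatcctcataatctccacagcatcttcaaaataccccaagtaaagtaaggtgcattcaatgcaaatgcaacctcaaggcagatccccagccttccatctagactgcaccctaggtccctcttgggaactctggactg

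Some members are the primary transcripts of microRNAs, short RNAs that pair with messenger RNAs through a seed at bases 2 to 8. AL034397.3, named MIR223HG in release 44, holds MIR223 on its own strand, a microRNA best known from myeloid cells. AL158152.1 holds let-7a-1, let-7f-1 and let-7d, members of the let-7 family that share 1 seed. The mature sequences from RefSeq are given with the seed in capitals, and none of them was measured here, since poly(A) libraries of this kind count the host transcript only.
miR-223-5p: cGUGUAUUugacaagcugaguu
miR-223-3p: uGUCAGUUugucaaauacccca
let-7a-5p: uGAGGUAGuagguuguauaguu
let-7f-5p: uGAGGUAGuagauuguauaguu
let-7d-5p: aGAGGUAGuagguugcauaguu

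The libraries held 35076835 to 42616061 counts in genes. The members took 0.456% to 0.465% of them in WT and 0.525% to 0.536% in Delta-TRRAP, and the 3 most abundant members took 35.7% to 38.9% of the member counts. Pairs of libraries of a group differed by 4.93 to 15.5 times the chi-square that counting alone would give, so each is a library of its own. EP400 had normalized counts between 4897 and 5377 in WT and between 4357 and 6833 in Delta-TRRAP. This is a gene count that cannot show the deleted part or the protein. The label gives the cell type as lymphoblast. Of 8 lymphoid markers MS4A1 was at 0, and CD79A and PAX5 stayed between 1.95 and 10.6 normalized counts, while PTPRC, also a marker of other blood cells, lay between 15785 and 16374 in WT and between 3710 and 4263 in Delta-TRRAP. All 9 erythroid and K562 markers were present, with a summed level between 227183 and 229652 in WT and between 142958 and 147439 in Delta-TRRAP. Of 13 mesenchymal markers, 8 were tested and 6 were called higher, with a sum between 818 and 915 in WT and between 14168 and 18194 in Delta-TRRAP and with LUM and PDGFRA at 0 in every library, and the part of these markers in the results below was not tested.

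Members both rose and fell in Delta-TRRAP. A gene was called when the edgeR quasi-likelihood test gave an adjusted p of at most 0.01 (Benjamini-Hochberg, over all 19114 genes tested) and the fold change was at least 2. All 142 members passed the filter on low values, and 17 were called higher and 14 lower (AC012103.1 counted), together 21.8% of them. The background share was 22.6% of all genes tested, with 16.5% called higher and 6.08% lower. That background holds many weakly expressed genes. Among the 9379 tested genes that met the same raw total of 2000, 9.18% were called, 4.01% higher and 5.17% lower. Those genes share the minimum but not the level: their median was 1946 normalized counts, beside 560 for the members. The total also sums both groups, so a member can pass through the group where it is high. AC002480.1 had raw counts of 180, 187 and 167 in WT and 522, 541 and 483 in Delta-TRRAP. The part of level in these shares was not tested. Other lncRNA genes with that raw total and a name rather than a clone symbol had 25 of 220 higher and 16 lower (18.6% called). Of 8897 protein-coding genes with that raw total, 8.71% were called. Without the fold threshold, 107 members passed the adjusted p, 66 up and 41 down, or 75.4% beside 58.3% of all genes tested and 68.1% of those at the same raw total. The groups did not overlap for 120 members, where the background was 71.1% of all genes and 78.5% of those at the same raw total.

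The median log2 fold change of the members was 0.12 (quartiles -0.34 and 0.72), beside 0.03 over all tested genes and -0.12 over tested genes with the same raw total. It was 0.31 for the 112 lncRNAs and -0.17 for the 22 pseudogenes. With library size as the only scaling the median of all genes shifted by 0.14, and 27 members were called higher and 12 lower. The share of all genes called under that scaling was not taken. With the raw total raised to 5000 the median of the members was -0.086, so its sign depends on which members are taken. Each member was also set against its neighbours, the genes tested within 1 Mb. The local median was at least 0.3 from zero around 40 members.

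**Figure D1:**
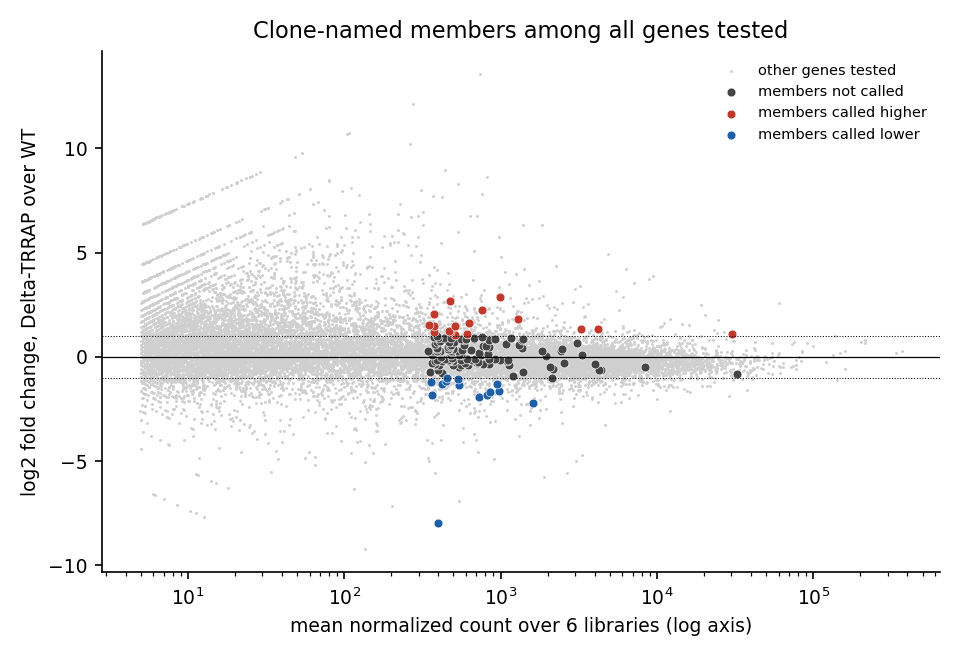
Log2 fold change of Delta-TRRAP over WT against the mean normalized count over the 6 libraries (log axis), with members coloured by call and other tested genes in grey (genes of chromosome Y and XIST are not drawn). Dotted lines mark a fold change of 2. The called members lie on both sides of zero, and AC012103.1 stands alone at -7.99.

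The most abundant members moved in opposite directions. Normalized counts, used for all values below unless a length is named, are counts divided by the scaled library size. AL713998.1, an intergenic lncRNA on chromosome 6 (ENSG00000227706.4, 67878316 to 67889339, minus strand), had the highest raw total. It was at 39694, 40346 and 43316 in WT and at 22440, 24692 and 23531 in Delta-TRRAP. The groups did not overlap, and its log2 fold change of -0.80 ± 0.06 (SE) passed the adjusted p (5.04e-09) but not the fold threshold. AC079466.1, on chromosome 19 (ENSG00000266976.3, 28606688 to 28615229, plus strand), was at 18640, 19313 and 20199 in WT and at 39620, 42111 and 41825 in Delta-TRRAP. All Delta-TRRAP libraries lay far above all WT libraries, and the log2 fold change was 1.09 ± 0.05 (SE, adjusted p 8.94e-11). AP001531.1, on chromosome 18 (ENSG00000287719.1, 8913999 to 8919414, plus strand), was at 9406, 9907 and 10069 in WT and at 7065, 7827 and 5865 in Delta-TRRAP, a log2 fold change of -0.50 ± 0.08 that was not called. Per kilobase of exon, the highest WT levels were 7561 for AL713998.1, 6093 for AC079801.1, 6082 for AL109918.1, 5700 for AC245297.1, 5026 for AC100834.2 and 4057 for AC079466.1. In Delta-TRRAP the highest were 15577 for AC079801.1, 8620 for AC079466.1 and 4331 for AL713998.1. AC079801.1 (chromosome 21, 5232668 to 5243833, minus strand) has only 388 bases of annotated exon. It rose from 2364 ± 207 to 6044 ± 518 (SD, n = 3), a log2 fold change of 1.35 ± 0.07 (SE), beside a local median of 0.73 over 7 genes.

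**Figure D2:**
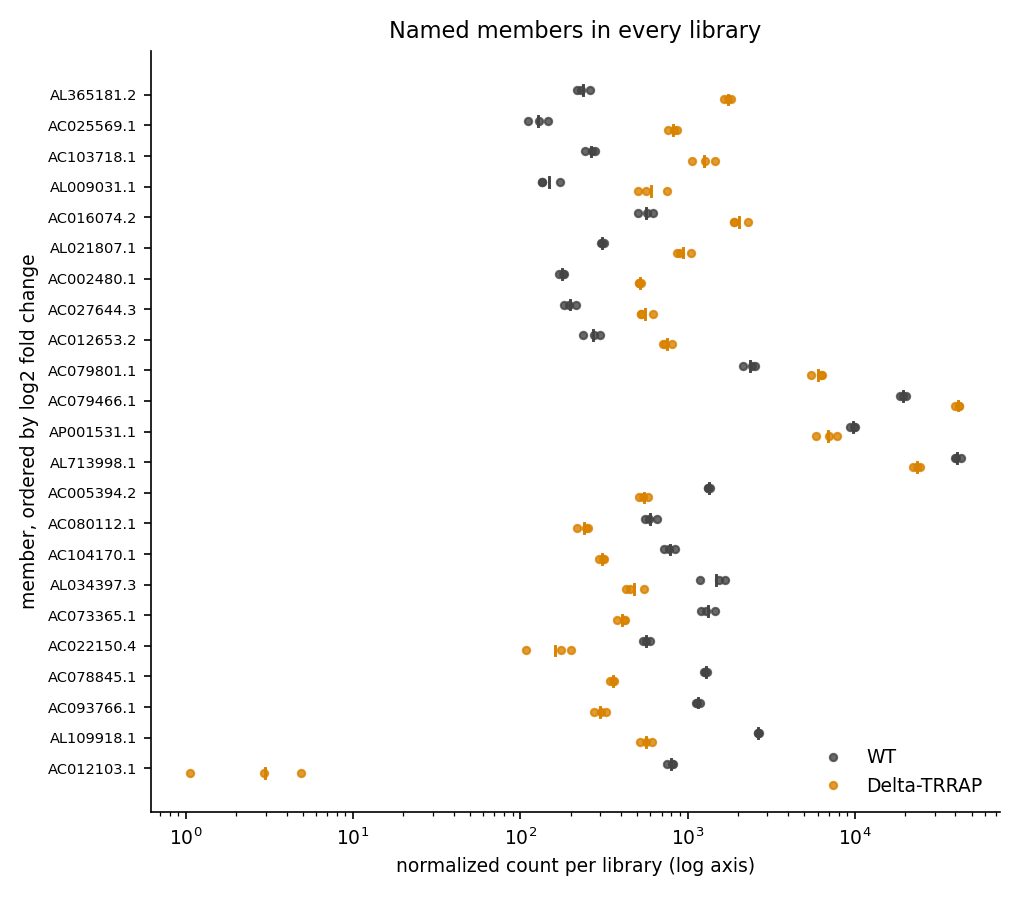
Normalized count (log axis) of each named member in every library, with points for libraries and short bars for group means, and with members ordered by log2 fold change. The groups are apart in every row drawn, from AC012103.1 at the bottom (759 to 816 in WT) to AL365181.2 at the top (1654 to 1808 in Delta-TRRAP).

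AC012103.1 was nearly lost in Delta-TRRAP. This intergenic lncRNA of chromosome 8 (ENSG00000253376.2, 57888975 to 57934329, minus strand) had raw counts of 800, 851 and 746 in WT and of 5, 3 and 1 in Delta-TRRAP. Its normalized count was 795 ± 31.6 (SD, n = 3) in WT and 2.96 ± 1.92 in Delta-TRRAP, a log2 fold change of -7.99, and no other member was lower than -2.23. The nearest coding gene, FAM110B, starts 60194 bases away and fell by 4.15 ± 0.32 (SE) on the log2 scale, from a mean of 61.3 to 3.36, while the local median over 7 genes was -0.28.

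The next largest fall was that of AL109918.1, a transcribed unprocessed pseudogene on chromosome 6 (52665274 to 52666878, plus strand). It was at 2639, 2630 and 2687 in WT and at 613, 563 and 517 in Delta-TRRAP, so that the groups were far apart. The log2 fold change was -2.23 ± 0.06 (SE, adjusted p 1.58e-13), and TMEM14A, a coding gene 4235 bases away, was also lower at -1.37 ± 0.08. A pseudogene shares sequence with its parent, and since only uniquely mapping reads were counted, part of its reads may have been discarded. AC093766.1, an intergenic lncRNA of chromosome 4, fell from 1150 ± 29.0 to 301 ± 24.5 (log2 fold change -1.93 ± 0.07). AC078845.1 of chromosome 7 fell from 1282 ± 27.2 to 356 ± 9.96 (-1.85 ± 0.06), although the 8 genes around it had a median of 1.06. AC073365.1 of chromosome 3 fell from 1318 ± 124 to 406 ± 22.5 (-1.70 ± 0.08).

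The fall of AC022150.4, which release 44 lists as coding and which overlaps the zinc finger gene ZNF83 on its strand, was -1.81 ± 0.14, while ZNF83 was at -0.40 ± 0.06. EPS15-AS1 (AC104170.1) starts 977 bases from the start of EPS15, an endocytic adaptor gene, and fell by 1.34 ± 0.07 while EPS15 was at -0.44 ± 0.06. GJD3-AS1 (AC080112.1) fell by 1.31 ± 0.09. Other members called lower were AC005394.2 and AC005307.1 (below), AC005208.1 at -1.20 ± 0.08, the pseudogene AC139769.1 at -1.06 ± 0.08 and TNFRSF10A-DT (AC100861.1) at -1.03 ± 0.09. The last was not called without WT replicate 2 or without Delta-TRRAP replicate 2, and neither AC139769.1 nor AC100861.1 was called under scaling by library size or where genes had to average 100 normalized counts.

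The microRNA host MIR223HG (AL034397.3, chromosome X, 66015414 to 66020426, plus strand) was at 1687, 1182 and 1553 in WT and at 456, 431 and 552 in Delta-TRRAP. WT replicate 2 was the lowest of its group and still above every Delta-TRRAP library. The log2 fold change was -1.62 ± 0.12 (SE, adjusted p 7.51e-09). Its neighbour upstream, AL034397.2, was at -0.58 ± 0.05, from 2580 ± 70.1 to 1728 ± 12.4. The let-7 host AL158152.1 was at 531, 463 and 481 in WT and reached 506 in Delta-TRRAP replicate 3, so that the groups overlap, and its log2 fold change of -0.17 ± 0.09 did not pass the test (adjusted p 0.112).

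The largest rise was that of BCAN-AS1 (AL365181.2, ENSG00000272068.1, chromosome 1, 156637783 to 156641004, minus strand), which lies beside BCAN, the gene of a brain proteoglycan whose counts were too low to be tested. The starts of the 2 genes are 1113 bases apart on opposite strands, just outside the 1000 bases set for a divergent pair. It was at 219, 229 and 259 in WT and at 1654, 1753 and 1808 in Delta-TRRAP, a log2 fold change of 2.88 ± 0.07 (SE, adjusted p 5.05e-14). The 50 genes around it had a median of -0.08. Upstream on the same strand lie AL365181.3 at 1.33 ± 0.06 (from 1871 ± 80.5 to 4696 ± 226) and BCAN-AS2 (AL590666.2) at 0.88 ± 0.16. The last was at 303, 303 and 308 in WT but at 583, 713 and 382 in Delta-TRRAP, and was not called. The fold change was smaller the farther the gene lies from BCAN-AS1.

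AC025569.1, antisense to the receptor phosphatase gene PTPRB on chromosome 12 (70468080 to 70543040, plus strand), was at 111, 129 and 145 in WT and at 825, 862 and 765 in Delta-TRRAP. Its log2 fold change was 2.67 ± 0.09 (SE, adjusted p 1.83e-12), and PTPRB was at 0.35 ± 0.11 with an adjusted p of 0.0141. AL009031.1, antisense to GMPR, an enzyme of purine metabolism, rose from 148 ± 22.2 to 608 ± 126 (log2 fold change 2.04 ± 0.14), while GMPR itself was at -0.44 ± 0.05. AC103718.1 rose from 265 ± 18.8 to 1261 ± 192 (2.25 ± 0.10), and LINC02964 (AC016074.2) from 567 ± 57.5 to 2026 ± 224 (1.84 ± 0.08) beside TRIB1, a pseudokinase gene, at -0.91 ± 0.06. STEAP1B-AS1 (AC002480.1) rose by 1.54 ± 0.08, with STEAP1B at -0.21 ± 0.05.

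For some of the largest rises the genes around the member, or the gene that holds it, moved the same way. AC079801.1, with its local median of 0.73, is given above. AL021807.1 lies among histone genes of chromosome 6 (27122657 to 27123221, minus strand) and rose from 309 ± 5.73 to 942 ± 102, a log2 fold change of 1.61 ± 0.08, where the 65 genes around it had a median of 1.11. AC012653.2 is a single block of 420 bases inside ALDH1A2, the gene of a retinoic acid synthesizing enzyme, on the same strand. It was at 236, 299 and 277 in WT and at 733, 714 and 811 in Delta-TRRAP (1.47 ± 0.09), and ALDH1A2 rose from 17439 to 102757 (2.56 ± 0.06). The local median around AC012653.2 was only 0.14 over 14 genes. Reads from unspliced ALDH1A2 RNA and reads from AC012653.2 cannot be told apart by strand.

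Members that start beside or across a coding gene had higher medians than the others. Divergent members had a median log2 fold change of 0.53, with 19 of 25 above zero, 21 past the adjusted p (17 up, 4 down), 3 called higher and 2 lower. Antisense members had a median of 0.31 (5 of 28 higher, 2 lower). The 13 members classed by a same-strand overlap alone had a median of -0.07 (1 higher, 3 lower), and intergenic members one of -0.04 (8 of 74 higher, 7 lower). The medians of the divergent and the antisense members stayed above zero under each scaling and filter tried (0.51 to 0.66 and 0.28 to 0.44), while those of the other classes rose above zero under scaling by library size (0.06 and 0.09) and where genes had to average 100 normalized counts (0.02 and 0.05). These shares are to be read against the 9379 tested genes at the same raw total. Of those, 9.18% were called, 68.1% passed the adjusted p in either direction and 3711 were above zero. The difference between the classes was not tested, and the classes were not matched for biotype. The 112 lncRNA members of all classes had a median of 0.31, as the antisense members did, and the 22 pseudogenes one of -0.17.

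**Figure D3:**
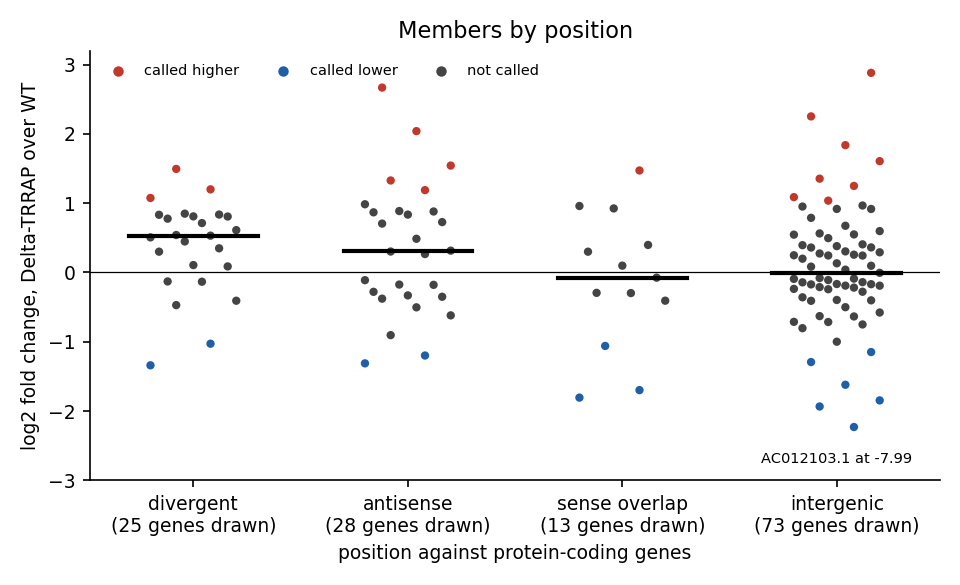
Log2 fold change of Delta-TRRAP over WT for each member by its position against protein-coding genes, coloured by call, with a bar at the median of the genes drawn. AC012103.1 at -7.99 is written, not drawn, 1 member placed on chromosome Y is left out, and most divergent members lie above zero.

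Divergent members were compared with the coding gene that starts next to them, since both share a promoter region. The 24 coding partners that were tested had a median log2 fold change of -0.03 (0.11 under scaling by library size), with 1 called higher and none lower, and their members had a median of 0.52. The member lay above its partner in 17 of 24 pairs. In no pair were both genes called. AC027644.3 shows this at the promoter printed above. It was at 182, 215 and 195 in WT and at 527, 529 and 618 in Delta-TRRAP, a log2 fold change of 1.49 ± 0.09 (SE). RABGEF1, a guanine nucleotide exchange factor gene that starts 91 bases away, was at 0.04 ± 0.16 (adjusted p 0.833). RABGEF1 was weakly counted, at 67.2 to 105 in WT and at 83.4 to 94.1 in Delta-TRRAP. The median level of the divergent partners was 2139. EMSY-DT (AP002360.1) rose by 1.08 ± 0.08 on the log2 scale with EMSY at -0.33 ± 0.08, and ZMPSTE24-DT (AL050341.2) was at 0.81 ± 0.06 with ZMPSTE24 at -0.24 ± 0.05.

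Other divergent pairs moved together. TNFRSF10A-DT was at -1.03 ± 0.09 with TNFRSF10A, a death receptor gene, at -0.79 ± 0.05. RAB4A-AS1 (AL162595.1) was at -0.47 ± 0.07 with RAB4A at -0.33 ± 0.05, and PDCD6IP-DT (AC112220.2) at 0.45 ± 0.08 with PDCD6IP at 0.31 ± 0.05. The only called partner, PKD2L2, was at 1.24 ± 0.33 with PKD2L2-DT (AC106791.1) at 0.81 ± 0.07. PKD2L2 was weakly counted, at 6.71 to 13.2 in WT and at 16.7 to 29.2 in Delta-TRRAP. Over the 24 pairs, all measured in the same 6 libraries, Pearson's r was 0.46 and Spearman's rho 0.40. Over 18 antisense pairs with a tested partner r was -0.04 and rho -0.08, and the partners had a median of -0.13 with 2 called higher. One of these, IFT22 at 1.58 ± 0.10, faces EMSLR (AC006329.1) at -0.38 ± 0.07.

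**Figure D4:**
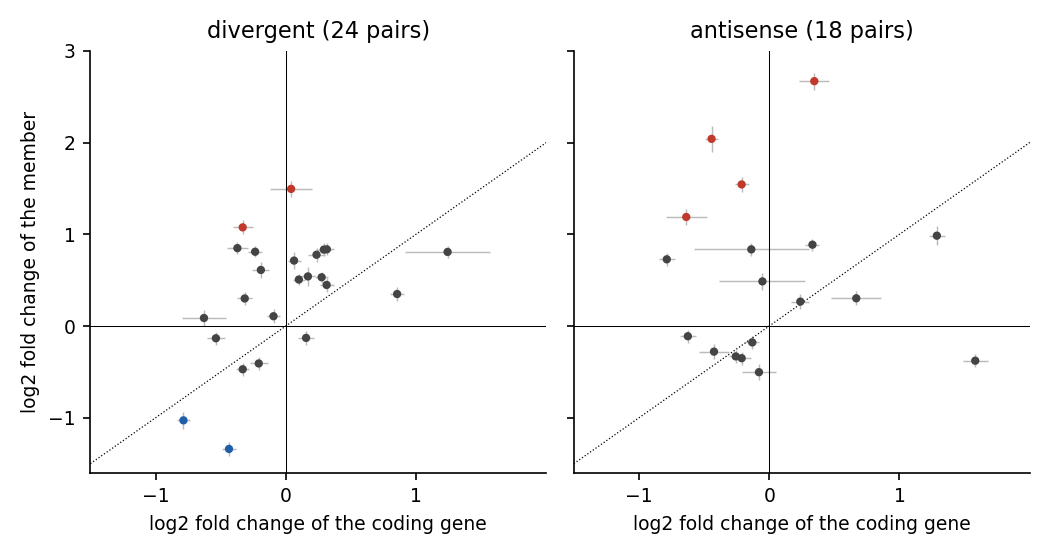
Log2 fold change of each divergent (left) or antisense (right) member against that of its coding gene, with standard errors as bars, members coloured as in the other plots (red called higher, blue called lower) and a dotted line where both are equal. On the left 17 of 24 members lie above the line.

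Neighbouring members did not always move alike. On chromosome 19, 4 members lie within 1 Mb of the next. AC006504.5 was at -0.40 ± 0.07, AC005307.1 fell by 1.15 ± 0.08 and AC005394.2 by 1.29 ± 0.06, while AC079466.1 rose by 1.09 ± 0.05. AC079466.1 lies wholly inside AC005394.2 on the opposite strand, over 8542 bases. AC005394.2 was at 1329, 1362 and 1328 in WT and at 543, 584 and 512 in Delta-TRRAP, so these 2 genes of 1 locus moved in opposite directions, each with no overlap between the groups. Of the 11 members on chromosome 19, 1 was called higher and 4 lower, beside the 9.18% called among genes at the same raw total. On chromosome 5, 7 of 8 members were above zero with a median of 0.94, and all 7 passed the adjusted p, as 68.1% of genes at the same raw total did in either direction. Most of the 7 lay among genes that were also higher, with local medians of 1.02 around AC021078.1, 0.63 around AC109439.2, 0.35 around AC106791.1 and AC010378.2, 0.30 around AC112178.1 and 0.04 around AC008443.1. AC008875.3, the only one called (1.25 ± 0.07), had a local median of -0.35. Both chromosomes were picked after the values were seen.

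Members on different chromosomes shared promoter sequence, as did the neighbours AC244669.2 and AC241952.1 of chromosome 1. Among 9591 pairs of 139 windows, local alignment found 62 pairs with at least 100 aligned columns and at least 75% identity, which joined 34 members into 8 groups, of which 5 with 23 members are described. Members with alike windows went apart in some groups. AC005208.1 was at -1.20 and AL365226.2 at 0.30, with windows of 87.6% identity over 290 columns. AC008875.3 was called higher at 1.25 and AC092718.4 was at 0.32, with 78.5% identity over 107 columns. The largest group, of 14 members, ran from -0.30 for AC068831.7 to 1.61 for AL021807.1 with 3 called higher. Of all 142 members 17 were called higher, and 9.18% of genes at the same raw total were called in either direction.

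In groups of pseudogenes the copies lay closer together. AC093752.1 (SEPTIN7P14) and AC138393.1 (SEPTIN7P13), with 98.7% identity over 297 columns, were at -0.19 ± 0.08 and -0.14 ± 0.09. AC241952.1, AC244669.2 and AC245297.1 had windows of 99.0% to 99.3% identity and values of -0.24 ± 0.09, -0.71 ± 0.08 and -0.63 ± 0.06. With copies so alike the split of reads between them is uncertain.

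**Figure D5:**
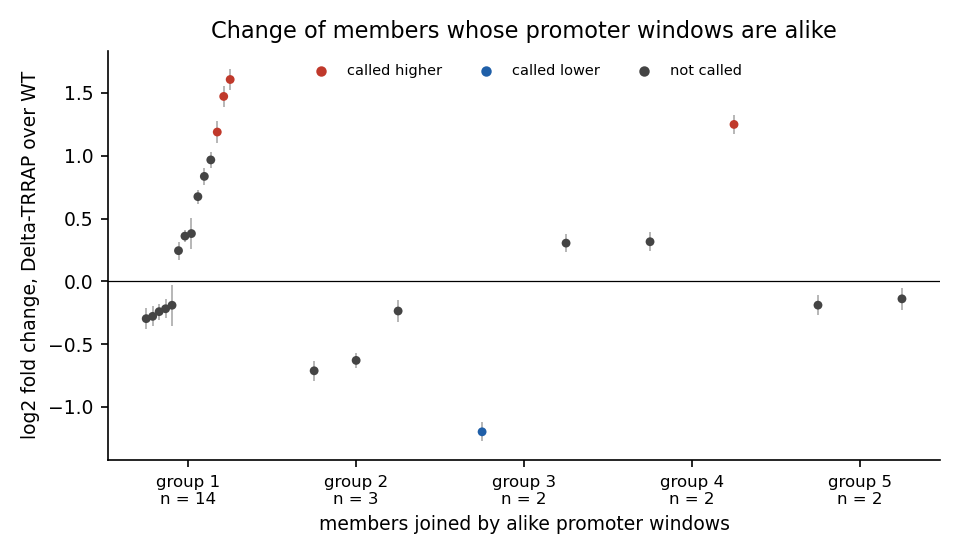
Log2 fold change (± SE) of the 23 members in 5 groups joined by alike promoter windows, coloured by call. Group 1, with 14 members, runs from -0.30 to 1.61, and the pseudogenes of group 2 lie between -0.71 and -0.24.

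Pseudogene and coding members lay mostly below zero, as did most tested genes at the same raw total. None of the 22 pseudogenes was called higher and 2 were called lower (9.09%), and 16 of 22 were below zero. Their median of -0.17 stayed below zero under each scaling and filter tried (-0.19 to -0.03). Of the 9379 tested genes at the same raw total, 9.18% were called and 5668 were below zero, with a median of -0.12. The 4 coding members were all below zero and 1 was called, and ZZZ3 (AC118549.1), a subunit of a histone acetyltransferase complex, was at -0.36 ± 0.06. Below the raw total of 2000, 743 of 3025 tested clone-named genes were called higher (24.6%) and 133 lower (4.397%), with a median of 0.38. Of all genes tested, 16.5% were called higher and 6.08% lower, with a median of 0.03. This is a description of clone-named genes with a median level of only 17.0 normalized counts. They were not set against other genes of the same low level, so the part of low counts in these shares was not tested.

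Libraries of a group were close for most members. The coefficient of variation had a median of 5.36% in WT and 5.90% in Delta-TRRAP, and it exceeded 20% for no member in WT and for 8 in Delta-TRRAP. Beside AC012103.1, where counts were few, these included AC005261.1, at 399 to 413 in WT and at 316, 254 and 497 in Delta-TRRAP, and AC022150.4, at 175, 202 and 108. In AC005261.1 the Delta-TRRAP libraries lay on both sides of WT.

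Noncoding RNAs are turned over in the nucleus by the RNA exosome, so its genes were read in the same libraries. Of 19 genes of the exosome and its adaptors, all were tested, none was called higher, and 2 were called lower: EXOSC5, a core subunit, at -1.17 ± 0.08, and ZCCHC8, a scaffold of the nuclear exosome targeting complex, at -1.02 ± 0.05. Without the fold threshold 13 passed the adjusted p downward and 2 upward, with a median of -0.44 (-0.46 to -0.30 under the other scalings and filters). Beside this, 5275 of all 19114 genes and 4061 of the 9379 genes with a raw total of at least 2000 passed downward, with medians of 0.03 and -0.12. Of 21 well-known noncoding RNAs with names, 19 were tested. NEAT1, the scaffold RNA of paraspeckles, was called higher at 2.48 ± 0.16. The imprinted H19 at -3.27 ± 0.09 and ZFAS1, a snoRNA host, at -1.20 ± 0.09 were called lower, 11 passed the adjusted p downward and 2 upward, and the median was -0.31. Whether these values bear on the members was not tested.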

How the data were processed

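Poly(A) RNA of 6 libraries was analysed. The authors deposited raw counts per gene: reads mapping once to hg38 (STAR) were counted with HTSeq 2.0.2 in reverse-stranded union mode on GENCODE 32, so strands were kept apart and reads shared by near-identical copies were discarded. Deposited tables of scaled counts, with 3 columns of another condition, and of the authors' own fold changes and p-values were not used. Counts were tested with edgeR 4.0.16 (R 4.3.3), which was tested on simulated counts first. TMM scaling and the quasi-likelihood F test were used with group as the only term, over the 19114 of 34998 genes with a count that averaged 5 or more normalized counts per library. Positions and biotypes came from GENCODE 44 and matched 140 members by ID. Windows were aligned in pairs with Biopython 1.88 in the same orientation. The members and lists were chosen with earlier results of these data known. Named members were AC012103.1, the 3 with the highest totals, the 10 largest called falls and rises without overlap, and the coding gene that each one's position points to, beside the 2 on each side of the raw total minimum. Genes named beyond these were chosen after their values were seen. Levels of 1 member on chromosome Y are not given. Some promoter windows and the results that rest on them are not reported here.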

Additional observations from a re-analysis of the deposited data

How the results depend on the processing

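The results were rerun with DESeq2 1.42.0, limma-voom, RLE scaling, library size scaling and no filter on low counts. A mean normalized count of at least 100, the replicate block and leaving out each library brought the alternatives to 13. All 23 named members kept their direction under each. The named members other than AC012103.1 also kept their side of the thresholds. AC012103.1, given with no test, had log2 fold changes between -8.53 and -7.63. The replicate number did not pair libraries, with correlations of -0.024 to -0.007 between same-numbered deviations, and with the replicate number as a block the members called were the same 17 higher and 14 lower, with 104 past the adjusted p. Leaving out 1 library at a time gave 17 to 19 higher, 13 to 15 lower, 98 to 111 past the adjusted p, and a median log2 fold change of 0.10 to 0.16. AC100861.1 was lost without WT replicate 2 or Delta-TRRAP replicate 2, and AC090114.2 without WT replicate 1. Scaling by library size gave 27 members higher and 12 lower with a median of 0.25, beside 0.17 over all genes tested. A mean normalized count of at least 100 gave 24 higher and 12 lower with a median of 0.21, beside 0.004. Both lost AC100861.1 and AC139769.1. Without a filter the median was 0.10, beside 0.11 over all genes. A fold change of 1.5 gave 41 higher and 23 lower. A raw total of at least 1000 gave 37 higher, 20 lower, 194 past the adjusted p and a median of 0.15. A raw total of at least 5000, which leaves fewer genes, gave 5 higher, 4 lower, 35 past the adjusted p and a median of -0.086. The number of members at these other raw totals is not given. The share of all genes called was not taken under any changed setting, so these counts have no background. The median was 0.17 without the 16 members that overlap a coding gene on the same strand and 0.30 without pseudogenes, the last chosen after seeing the data. The precision of single members is limited by 3 libraries a group, and intervals between clones cannot be given.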
